A study of Mesocricetus auratus and Mus musculus with 214 samples.

Results

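Proteasome subunit genes of the golden hamster were described here across the female and male germline. Members were taken by symbol: every gene whose hamster symbol begins with Psma, Psmb, Psmc, Psmd, Psme, Psmf or Psmg followed by a number, the testis subunit Psma8 included. This gave 49 of the 36133 genes in the tables. By role they were 8 genes of the 20S alpha ring, 7 constitutive and 4 inducible or tissue-restricted genes of the 20S beta ring, 6 ATPases and 11 non-ATPase subunits of the 19S particle, 7 assembly chaperones and related genes, 5 activator and inhibitor genes, and Psme3ip1, which encodes a protein that binds an activator and was counted apart.

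The study generated mRNA libraries from wild-type (WT) LVG golden Syrian hamsters and from hamsters in which 1 of 4 Piwi genes had been disrupted by CRISPR/Cas9 injection of embryos and then bred to homozygosity (Piwil1-/-, Piwil2-/-, Piwil3-/- and Piwil4-/-). Single oocytes and embryos were WT and Piwil3-/- germinal vesicle (GV) oocytes (3 and 3 libraries), mature MII oocytes (4 and 4), and embryos labelled 11 (5 and 5), 34 (4 and 3) and 54 (2 and 2) hours post egg activation (h.p.e.a.). Embryos of both groups were sired by WT males. Embryos called Piwil3-/- here came from Piwil3-/- mothers, so the name gives the mother's genotype and not the embryo's own. Of the WT libraries labelled 11 h, 2 were titled 8 h. A second set of MII oocytes held WT (3), Piwil2-/- (3) and Piwil4-/- (2) libraries. Whole testes, 2 libraries per group, were WT, Piwil2-/- and Piwil4-/- at 3 days post partum (d.p.p.), and WT and all 4 mutants in adults. Germ cells sorted from adult testes by DNA staining with a Hoechst dye, mature sperm aside, made up 2 further sets. The first was a WT series of spermatogonia, pre-leptotene, leptotene, zygotene, pachytene, round sperm and mature sperm (2 libraries each). The gates the study lists end at round and elongating spermatids, so how mature sperm were collected is not clear. The second held WT and Piwil1-/- cells labelled SPG/PL (4 and 3), LZ (4 and 3), P (4 and 4) and D (4 and 4). The study describes these as spermatocytes at the pre-leptotene (PL), leptotene/zygotene (LZ), pachytene (P) and diplotene (D) stages. Cells labelled SPG/PL are called pre-leptotene below, although the label also names spermatogonia (SPG). All animals shared the same strain, and no group received a drug.

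The proteasome is the protease that degrades ubiquitin-tagged proteins in the cytosol and nucleus. Its barrel, the 20S core, is built of outer rings of alpha subunits, which gate the entry, around inner rings of beta subunits, of which Psmb5, Psmb6 and Psmb7 carry the catalytic sites. The 19S particle caps the barrel, with ATPases (Psmc genes) that unfold substrates and non-ATPase subunits (Psmd genes) that bind and deubiquitinate them. Interferon-inducible Psmb8, Psmb9 and Psmb10 can replace the constitutive catalytic subunits and form the immunoproteasome. In mouse testis Psma8, a paralog of Psma7, is incorporated in the core of spermatocytes and spermatids, and the activator PA200 (Psme4) takes part in histone degradation during spermatogenesis.

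The disrupted gene was lower in mean value in every mutant group where its WT mean was above 0, with a narrow margin for Piwil2 in MII oocytes (1.19 ± 1.10, SD, n = 3, against 1.27 ± 0.64, n = 3), where the RNA level did not check the label. Its RNA was not absent: Piwil1 was at 47 ± 9.85 in sorted Piwil1-/- pachytene cells against 280 ± 39.5 in WT (SD, n = 4 each). Values of the oocyte, embryo and sorted sets are per kilobase of gene and relative to 10000 spike-in (ERCC) reads, those of whole testes relative to 1000 spike-in reads, and those of the WT stage series are FPKM, so levels were compared only within a set. Summed over genes they ranged 22321 to 2714400 per library in oocytes and embryos, 42524 to 167460 in testes, 69606 to 621050 in the sorted set and 564810 to 684850 in the stage series. Because the spike-in scale carries the amount of RNA, each comparison was repeated after all libraries had been set to one common total (rescaling). Rescaled counts of members are given for each spike-in comparison that called a member on either scale. In the stage series rescaling moved no count of members that rose or fell by more than 2. Read numbers are not part of these values, so no counting interval was derived.

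In the WT stage series the RNA of Psma7 gave way to that of Psma8 between leptotene and pachytene. Psma7, the constitutive subunit at that ring position, fell from leptotene to zygotene and again to pachytene, and its paralog Psma8 rose at both steps. Per library, Psma7 was at 888 and 981 FPKM in spermatogonia, 701 and 886 in pre-leptotene, 481 and 576 in leptotene, 50.1 and 85.5 in zygotene, 5.85 and 7.96 in pachytene, 0.854 and 1.28 in round sperm and 219 and 259 in mature sperm. Psma8 was at 26.7 and 26.5, 20.2 and 19.2, 39.6 and 30, 185 and 152, 488 and 423, 37 and 57.7, and 16.1 and 19.3 FPKM in the same order. The libraries of neighbouring stages did not overlap for either gene, although spermatogonia and pre-leptotene were close for Psma7. Expressed as a share of the pair, Psma8 made up 2.13 to 7.61% of the summed Psma7 and Psma8 FPKM up to leptotene, 63.9 to 78.7% in zygotene, 98.2 to 98.8% in pachytene, 97.7 to 97.8% in round sperm and 6.87 to 6.93% in mature sperm.

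**Figure D1:**
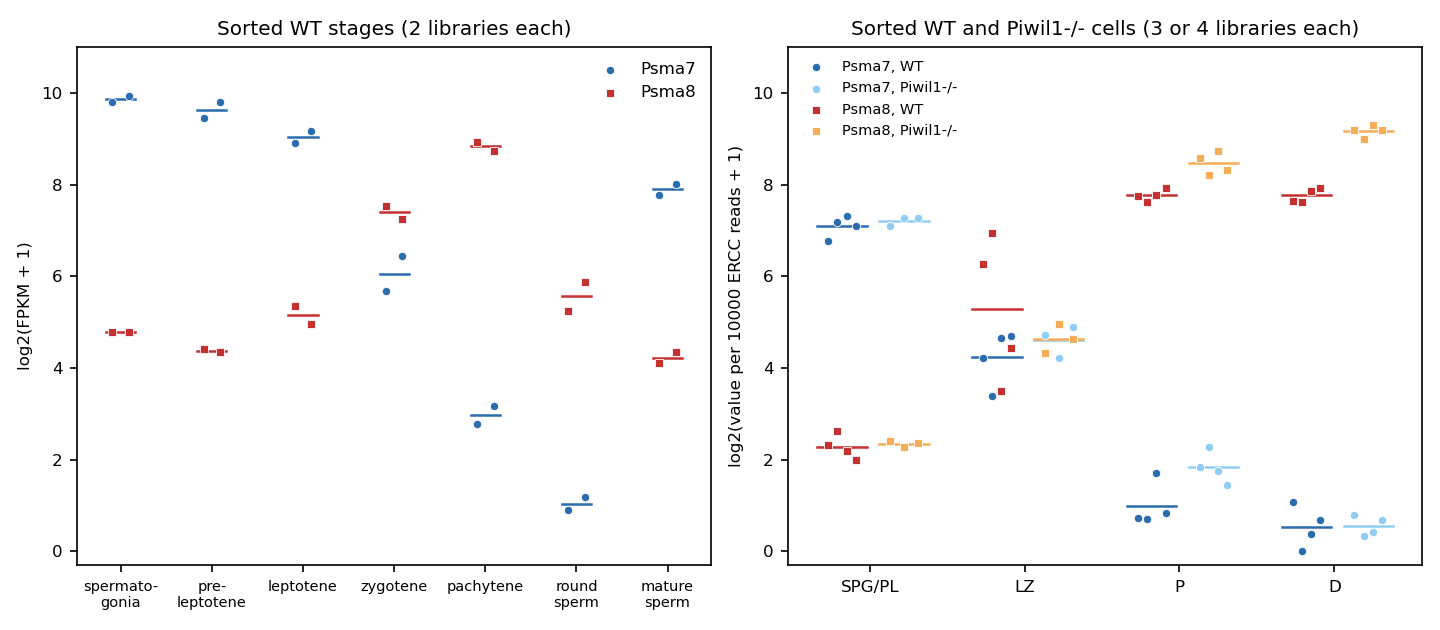
Level of Psma7 and Psma8 in each library (points) with group means (bars), as log2(FPKM + 1) in the WT stage series (left) and log2(value per 10000 spike-in reads + 1) in sorted WT and Piwil1-/- cells (right). The genes cross between leptotene and zygotene in the stage series, where Psma7 is at 481 and 576 and then 50.1 and 85.5 FPKM.

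On the log2(FPKM + 1) scale used for all tests of this series, Psma7 fell by 2.99 ± 0.25 (SE) from leptotene to zygotene (adjusted p = 5.64e-05, limma with Benjamini-Hochberg adjustment over all genes tested, n = 2 per stage) and by 3.08 ± 0.25 from zygotene to pachytene (adjusted p = 2.88e-06). Psma8 rose by 2.25 ± 0.23 and then by 1.43 ± 0.23 at the same steps (adjusted p = 0.000108 and 0.000287). Reads mapping to several places were counted by the authors, so reads shared between these paralogs could have been counted for both genes. The labels do not say whether replicate libraries came from separate animals, and p-values here measure only the spread between libraries.

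Few other members moved before zygotene. From spermatogonia to pre-leptotene 2 of 46 tested members rose and 0 fell, where 1.57% of all genes rose and 4.59% fell. They were Psmb10, an inducible catalytic subunit (40.5 and 56.9, then 95.5 and 84.8 FPKM), and Psmg4, an assembly chaperone (120 and 126, then 280 and 235). Psmb10 then returned to 47.9 and 46.1 FPKM in leptotene, the only member called at that step (1 of 46 fell and 0 rose, against 0.597% and 4.66% of all genes). The Psmb10 calls at both steps were lost when either spermatogonia library, pre-leptotene replicate 1 (first step) or pre-leptotene replicate 2 or either leptotene library (second step) was left out, with differences of 0.65 to 1.13 and -1.01 to -0.89 on the log2 scale.

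At the leptotene to zygotene step 8 of 46 members rose and 8 fell, against 7.31% and 19.5% of all genes. Psme1, a subunit of the PA28 activator, fell from 49.8 and 32.4 to 3.95 and 3.60 FPKM, a log2 difference of -3.11 ± 0.25 (adjusted p = 4.98e-05). Its partner Psme2 was at 83.1 and 84.1 and then 96.6 and 81.2 FPKM, so the subunits of this activator did not move together. Psmd5, a chaperone of 19S base assembly, fell from 78.8 and 76.7 to 30 and 35.4 FPKM. The count of 16 members called at this step was 6 without leptotene replicate 2.

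From zygotene to pachytene 12 of 47 members rose and 13 fell, against 24.2% and 32.9% of all genes. The ATPases were on the higher side: 3 of 6 rose, among them Psmc3 from 170 and 142 to 456 and 453 FPKM and Psmc5 from 134 and 132 to 339 and 327. Psmd8, a non-ATPase of the 19S lid, rose from 330 and 342 to 760 and 672 FPKM, and Psmf1, the PI31 proteasome regulator, from 52.9 and 42.7 to 129 and 110. Psmb9, an inducible catalytic subunit, was at 0.184 and 0.633 FPKM in zygotene and 9.49 and 17.3 in pachytene, a rise of 3.32 ± 0.38 on the log2 scale (adjusted p = 3.27e-05). Psmb8 was listed at 0 in all 4 of these libraries. Psmd10, the 19S chaperone known as gankyrin, was at 27.9 and 20.4 FPKM in zygotene and listed at 0 in both pachytene libraries, and it was at 0.310 and 0.436 in round sperm and at 14.6 and 16 in mature sperm. Psmd10 is X-linked in mouse and human, as is Uba1, the main ubiquitin-activating enzyme. In a list of 29 other ubiquitin and proteasome pathway genes found in the tables, 12 of 25 tested fell and 5 rose at this step, and Uba1 went from 78.9 ± 22.2 to 0.602 ± 0.00145 FPKM (SD, n = 2), a log2 difference of -5.61 ± 0.22 (adjusted p = 2.17e-08).

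The broadest change came with round sperm. There 39 of 46 tested members fell and 3 rose from pachytene, whereas over all genes tested 41.4% fell and 40.8% rose. The median member difference was -1.52 on the log2 scale against -0.06 over all genes, and the 49 genes went from 1.70 to 1.73% of all summed FPKM in pachytene to 0.721 to 0.779% in round sperm. All 11 non-ATPase subunits, 7 of 8 alpha-ring genes, 6 of 7 constitutive beta-ring genes, 5 of 6 ATPases and all 6 tested chaperones fell. Within one ring the size of the fall varied widely. Psma5 went from 164 and 177 to 1.08 and 5.34 FPKM (-5.56 ± 0.39, adjusted p = 3.10e-07) and Psma7 from 5.85 and 7.96 to 0.854 and 1.28, whereas Psma6 rose from 220 and 183 to 530 and 522 (1.39 ± 0.19, adjusted p = 4.13e-05).

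Among the ATPases, Psmc6 fell from 120 and 112 to 1.36 and 2.46 FPKM, while Psmc3 was at 456 and 453 and then 372 and 355. These genes encode subunits of one hexameric ring, and their RNAs stood far apart in round sperm. Psmd2, a large scaffold subunit of the 19S base, went from 299 and 301 to 20.4 and 27.1 FPKM, Psmd3 from 80.0 and 75 to 3.64 and 6.42, and the chaperone Psmg3 from 31.4 and 29.8 to 0.704 and 0.330. The 3 members that rose were Psma6, Psmf1 (129 and 110, then 428 and 400) and Psme4 (3.98 and 5.16, then 14.9 and 13.3). The rises of Psmf1 and Psme4 were 1.79 ± 0.22 and 1.44 ± 0.23 on the log2 scale (adjusted p = 1.57e-05 and 0.000118), and the other activator genes, Psme1, Psme2 and Psme3, all fell. Across the 14 constitutive core subunits (Psma1 to Psma7 and Psmb1 to Psmb7), the SD of log2 level within a library was 0.549 to 0.585 in leptotene, 1.48 to 1.58 in pachytene and 2.1 to 2.40 in round sperm. Without Psma7, the lowest core gene in pachytene, it was 0.547 to 0.5675, 0.655 to 0.664 and 1.57 to 1.98. Of 26 other pathway genes 10 rose and 11 fell at this step. FPKM are shares of a library, and absolute RNA amounts per cell cannot be read from them.

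Mature sperm differed again, with 16 of 48 members higher and 17 lower than in round sperm (46.5% and 31.8% of all genes). Psma7 was at 219 and 259 FPKM, Psmb8 at 67.9 and 56.9 after 0.284 and 0 in round sperm, and Psme1 at 108 and 69.6 after 1.26 and 1.18. Psmf1 fell back to 108 and 155 FPKM and Psmc3 to 102.7 and 88.2. In the same 2 libraries the summed level of 5 leukocyte genes, all 5 above 0, was 1320 to 1769 FPKM against at most 22.3 in any other stage. The 7 interferon-response genes summed to 38.9 to 41.9, against 3.00 to 5.54 in round sperm and 34.6 to 38.9 in spermatogonia. The part of leukocytes in these values was not tested. In a bulk sample, a change in the number of cells of a type and a change of RNA per cell cannot be told apart.

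Sorted WT spermatocytes, measured on the spike-in scale, gave the same order of events for this pair of genes with 4 libraries per stage. Psma7 was at 108, 145, 159 and 136 in pre-leptotene cells, 17.6, 9.44, 24.3 and 24.9 in leptotene/zygotene, 0.649, 0.635, 2.24 and 0.782 in pachytene and 1.11, 0, 0.302 and 0.612 in diplotene. Psma8 was at 3.98, 5.16, 3.58 and 2.99 in pre-leptotene, 75.8, 123, 10.3 and 20.6 in leptotene/zygotene, 214, 196, 218 and 241 in pachytene and 199, 195, 232 and 242 in diplotene. No library of one stage overlapped the next for either gene up to pachytene, while pachytene and diplotene overlapped for both. The 5 spermatogonia genes summed to 41.3 to 58.4 in the WT libraries labelled SPG/PL and to 2.87 to 7.67 in WT leptotene/zygotene. The part of spermatogonia in these values was not tested. The step from pre-leptotene to leptotene/zygotene was -2.86 ± 0.25 for Psma7 and 3.01 ± 0.39 for Psma8 on the log2(value + 1) scale (adjusted p = 1.02e-10 and 1.30e-07, limma), and each gene gave an exact two-sided permutation p of 0.0286, the smallest that 4 against 4 libraries allow (adjusted 0.0476 over 10 tests). Same-numbered libraries deviated together at this step (correlations of 0.16 to 0.2, against at most 0.19 for other numbers). An exact test over the 4 pairs, added after the data were seen, gave p = 0.125 for each gene, the smallest it allows. All 4 pairs went in 1 direction for each gene. Each number held an A and a B library. The limma fit and both exact tests counted these separately, and the labels do not say whether they are independent.

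The leptotene/zygotene libraries numbered 1 stood apart from those numbered 2 in Psma8 (75.8 and 123 against 10.3 and 20.6). Without the pair numbered 1 the Psma8 step was 1.68 (adjusted p = 2.87e-08, limma) and that of Psma7 -2.42 (adjusted p = 5.49e-09). Of 45 tested members, 15 rose and 7 fell at this step, against 34.1% and 26% of all genes. After rescaling 15 of 46 rose and 13 fell (29.9% and 39.4%), and without that pair 8 rose and 12 fell. Non-ATPase subunits made up 7 of the 15, with Psmd6 the highest at 1.13 ± 0.19. Psme1 fell from 7.80, 13, 13.8 and 12.1 to 1.57, 1.09, 1.45 and 1.97, as it had fallen in the stage series.

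Between leptotene/zygotene and pachytene 40 of 45 members rose on the spike-in scale and 1, Psma7, fell, where 81.8% of all genes rose and 6.96% fell. After rescaling 13 of 47 rose and 26 fell, against 36.5% and 44.1% of all genes, so the direction of most members at this step depended on the scale. The members that rose on both scales included Psmc3, Psmc5, Psmd8 and Psmf1, which had risen from zygotene to pachytene in the stage series as well. Psmc5 went from 25.5, 50.9, 15.2 and 19.6 to 188, 202, 165 and 195, a difference of 2.86 ± 0.21 (adjusted p = 5.64e-13, limma) or 1.22 after rescaling. Psmf1 went from 7.44, 13.7, 3.87 and 5.30 to 61.6, 59.2, 42.2 and 55.4 (2.81 ± 0.22, or 1.27 rescaled).

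Among the inducible subunits Psmb9 changed the most between these stages. It was at 0.0617 to 3.41 in leptotene/zygotene, 32.3, 31.6, 20.2 and 27.9 in pachytene and 55.6, 69.5, 75.9 and 79 in diplotene. The first step was 4.16 ± 0.28 (adjusted p = 7.13e-14, limma) and 3.50 after rescaling. The second was 1.30 ± 0.28 (adjusted p = 0.000206) and 0.61 after rescaling, which did not pass (adjusted p = 0.143). Psmb8 did not exceed 0.163 in any WT library of this set. Psmd10 was at 1.6 to 5.28 in leptotene/zygotene and listed at 0 in 3 of the 4 pachytene libraries, as in the stage series. Leukocyte genes summed to at most 2.43 in every library of the set. The interferon-response list summed to 0.635 to 1.46 in WT leptotene/zygotene, 4.25 to 5.20 in pachytene and 10.1 to 16.6 in diplotene. Of its 7 genes, 6, 4 and 5 were above 0 in any library of these stages. Mean library totals rose as well, from 107140 to 335860 and 545050. The part of an interferon response in the Psmb9 values was not tested.

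From pachytene to diplotene 18 of 45 members rose and 3 fell (57.2% and 9.16% of all genes), but 1 rose and 29 fell after rescaling (22.8% and 33.4%). Psme4 alone rose on both scales: it was at 3.32, 4.06, 2.46 and 3.97 in pachytene and 7.91, 10.1, 9.27 and 10.8 in diplotene, 1.25 ± 0.16 (adjusted p = 1.70e-07, limma) or 0.62 rescaled. Psmd5, Psmc6 and Psme2 fell on both scales, Psmc6 from 39.3 ± 8.21 to 22.2 ± 2.35 (SD, n = 4). The ratio of summed 20S to summed 19S values declined through these stages, from 2.16 ± 0.12 in pre-leptotene to 1.67 ± 0.06, 1.04 ± 0.08 and 0.848 ± 0.023 in diplotene (SD, n = 4), a ratio that does not depend on the scaling. In the stage series the same ratio was 2.01 in spermatogonia, 1.15 in pachytene, 1.16 in round sperm and 2.50 in mature sperm (means of 2 libraries).

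**Figure D2:**
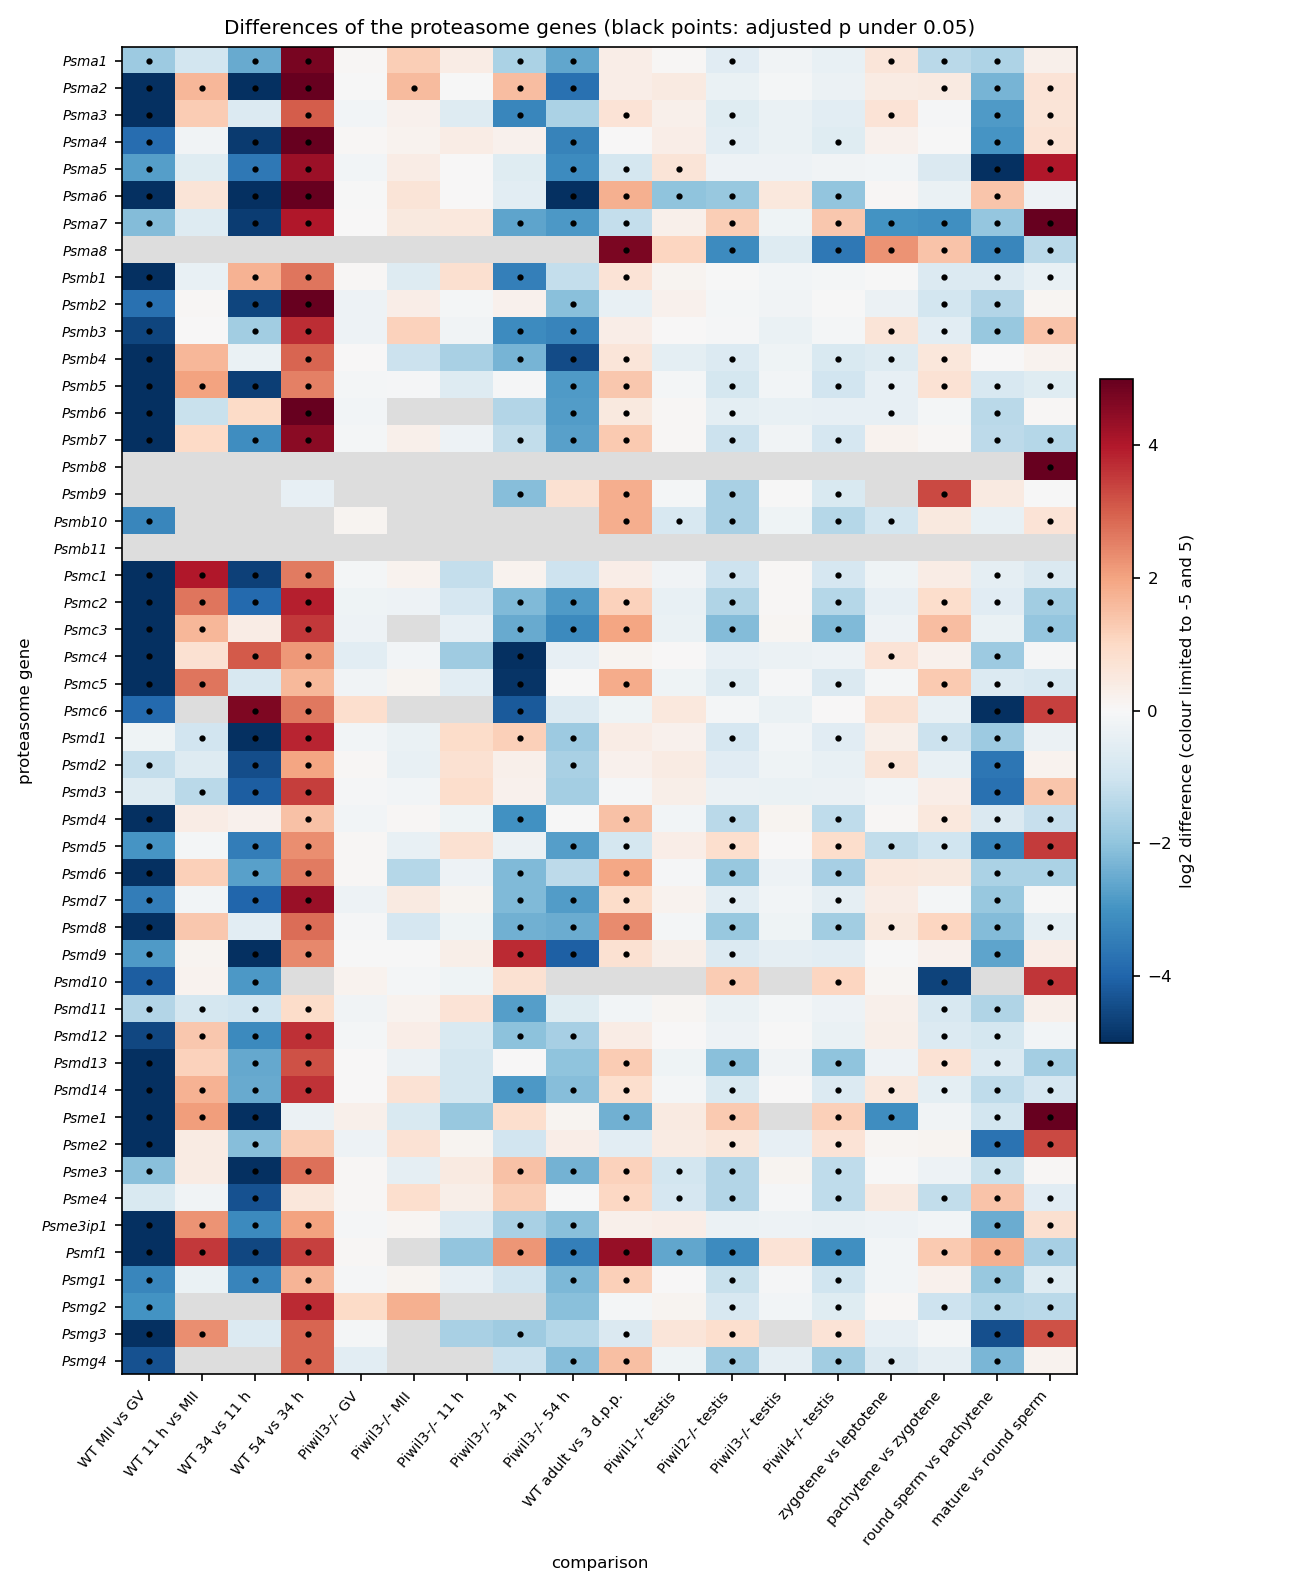
Log2 difference of each of the 49 genes (rows, in order of symbol) in 18 comparisons (columns), colour limited to -5 to 5, with black points for adjusted p under 0.05 and grey for genes not tested. The pachytene to round sperm column is mostly lower (39 of 46) with Psma6, Psmf1 and Psme4 higher, and the 34 to 54 h column of WT embryos is mostly higher (40 of 44).

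On the spike-in scale, 1 member was called between Piwil1-/- and WT sorted spermatocytes. The study describes late Piwil1-/- spermatocytes as abnormal, with few of them going further in meiosis. The part of this cell state in the differences was not tested. In diplotene cells Psma8 was at 578, 511, 626 and 587 in Piwil1-/- libraries against 199, 195, 232 and 242 in WT, so that the lowest mutant library lay above the highest WT library. The difference was 1.41 ± 0.39 on the log2 scale (adjusted p = 0.0159, limma) and 1.34 after rescaling (adjusted p = 0.0070). It was the only one of 45 tested members called, where 8.42% of all genes were higher and 1.89% lower, and 1 member had an unadjusted p under 0.05. After rescaling 1 of 44 was higher and 2 lower (7.03% and 2.98%). The exact two-sided permutation test, which also counts A and B libraries separately, gave p = 0.0286 (adjusted 0.0476). When libraries A and B sharing a number were first averaged, the difference stayed at 1.41 but the adjusted p was 0.204.

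In pachytene cells Psma8 was at 381, 296, 427 and 318 in Piwil1-/- against 214, 196, 218 and 241 in WT, again without overlap. The exact permutation p was 0.0286 (adjusted 0.0476), but the fit across all genes gave 0.69 ± 0.39 (adjusted p = 0.618, limma), and 0 of 46 members were called there (2.51% of genes higher, 0.304% lower, 3 members with an unadjusted p under 0.05). Psma7 was at 2.55, 3.86, 2.36 and 1.74 in Piwil1-/- and 0.649, 0.635, 2.24 and 0.782 in WT pachytene cells (exact permutation p = 0.0571). Without WT pachytene library 2A, the one at 2.24, the Psma7 difference was 1.07 and passed. In pre-leptotene and leptotene/zygotene cells 0 of 45 members were called in each (2 with an unadjusted p under 0.05 in each), where 0.0166% of all genes were higher and 0 lower in the former and 0 were higher and 0.0172% lower in the latter. For leptotene/zygotene this count was 12 without WT library 2A. Psmb9 was at 59.7, 54.8, 57 and 60.9 in Piwil1-/- diplotene cells, a difference of -0.25 ± 0.28 from WT that did not pass.

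Whole testes of newborn and adult WT animals differed in a few members by large factors. Psma8 was at 0.279 and 0.960 in WT testes at 3 d.p.p. and 41 and 39.2 in adults, and Psmf1 at 3.05 and 3.09 and then 69.5 and 98.4. Psmd8 went from 11.6 and 13.8 to 75 and 65.3. Psma7 went the other way, from 31.7 and 39 to 15.5 and 14.5, as did Psme1, from 9.58 and 15.4 to 2.55 and 0.761. The differences were 4.70 ± 0.51 for Psma8, 4.36 ± 0.20 for Psmf1, 2.38 ± 0.22 for Psmd8, -1.18 ± 0.21 for Psma7 and -2.40 ± 0.35 for Psme1 (adjusted p from 7.56e-11 to 9.90e-05, limma, n = 2 per group). All 5 kept their direction and passed after rescaling.

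Of 46 tested members, 25 were higher and 5 lower in adult testes, against 67.0% and 15.8% of all genes. Rescaling turned this to 7 higher and 29 lower (38% and 48.2%). The members' share of all summed values was 1.21 to 1.39% at 3 d.p.p. and 0.851 to 0.895% in adults. The round spermatid genes in the table (3) summed to 0.148 to 0.473 at 3 d.p.p. and 849 to 1680 in adults, and 5 Sertoli cell genes to 491 to 651 and 123 to 160. Their part in the differences was not tested.

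**Figure D3:**
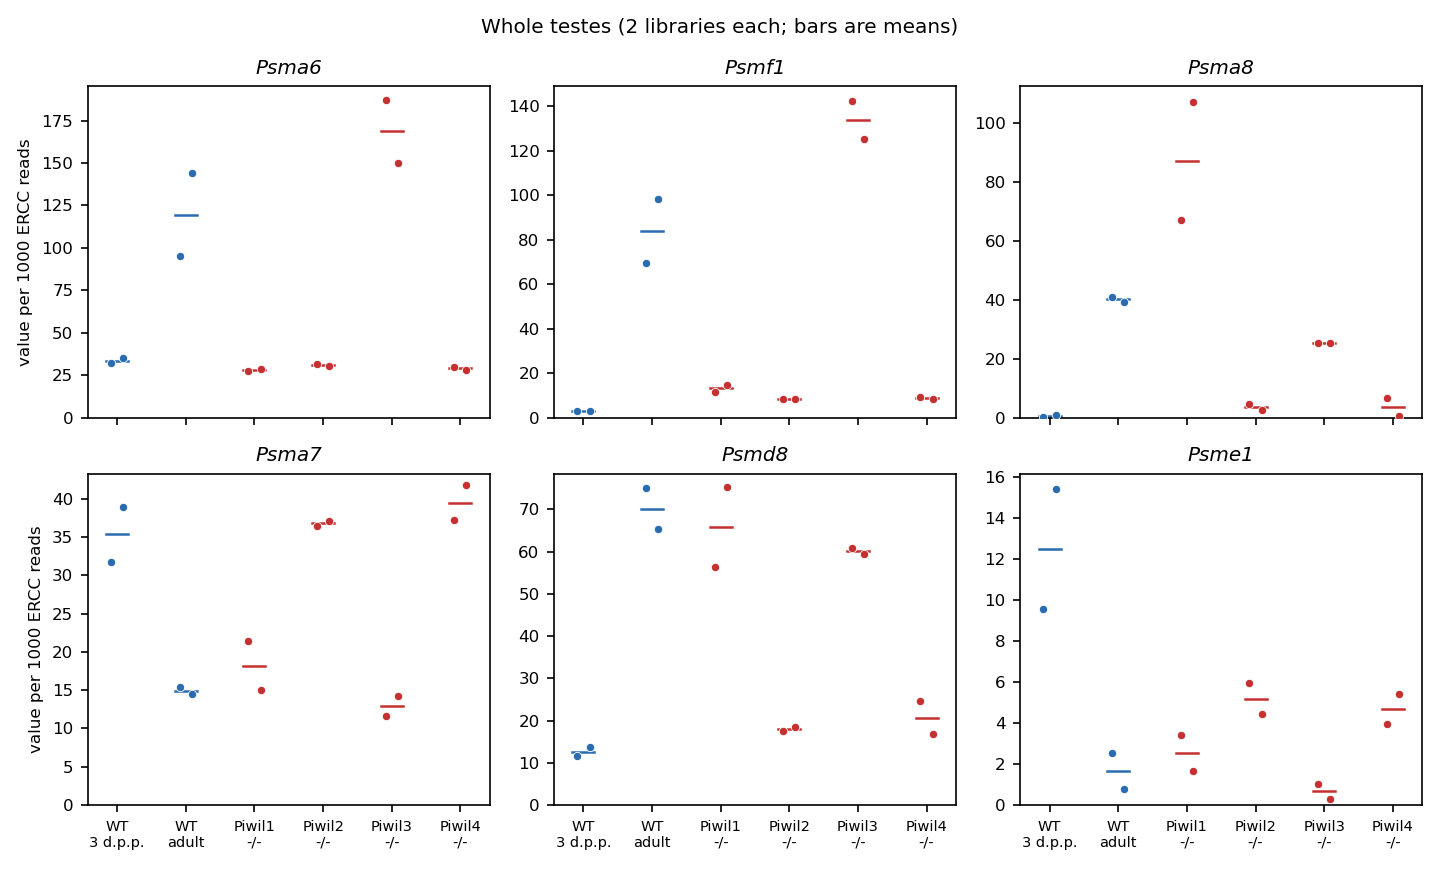
Values per 1000 spike-in reads of 6 genes in whole testes (points are libraries, bars are means, 2 libraries per group). Psma6 and Psmf1 are high in WT and Piwil3-/- adults and low in the other adult mutants, and Psma8 stays at 66.9 and 107 in Piwil1-/- adults.

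Adult Piwil1-/- testes separated Psma6 and Psmf1 from Psma8. Psmf1 was at 11.6 and 14.5 against 69.5 and 98.4 in WT, and Psma6 at 27.5 and 28.5 against 94.9 and 144. Psma8 was at 66.9 and 107 against 41 and 39.2. The difference was -2.58 ± 0.20 for Psmf1 (adjusted p = 4.90e-08, limma), -2.02 ± 0.22 for Psma6 (adjusted p = 2.04e-06) and 1.06 ± 0.52 for Psma8, which did not pass on the spike-in scale (adjusted p = 0.130) and passed after rescaling (1.53, adjusted p = 0.0163). Psma6 and Psmf1 were 2 of the 3 members that rose from pachytene to round sperm in the stage series. The third, Psme4, was at 1.72 and 2.41 against 4.88 and 3.95 in WT testes, a difference of -0.83 ± 0.20 (adjusted p = 0.00433) that did not pass without WT replicate 1.

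In all, 1 of 46 members was higher and 5 were lower in Piwil1-/- testes (7.24% and 28.7% of all genes), 3 in all without WT replicate 1, and 28 of 41 were higher and 3 lower after rescaling (38.8% and 21.6%). The lower members were Psmf1, Psma6, Psme4, Psme3 (7.31 and 9.10 against 15.6 and 17.3) and Psmb10, and the higher one was Psma5. The calls of Psme3, Psmb10 and Psma5 were each lost without at least 1 of the 4 libraries, WT replicate 2 in every case. Round spermatid genes summed to 0.534 to 0.561 in Piwil1-/- testes, near their level at 3 d.p.p., whereas meiotic spermatocyte genes summed to 157 to 181 against 120 to 131 in WT. Of 22 other pathway genes 7 were lower and 0 higher, and after rescaling 3 of 20 were lower and 5 higher. The protease gene Ddi1 led the lower ones (0.0525 against 20.3 on average), and in the stage series it rose from pachytene to round sperm. The part of these cell types in the differences was not tested.

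Piwil2-/- and Piwil4-/- adult testes were each compared with the same 2 WT libraries. In Piwil2-/- testes Psma8 was at 4.69 and 2.69, Psmf1 at 8.54 and 8.32 and Psma6 at 31.5 and 30.6. In Piwil4-/- testes these were 6.69 and 0.584, 9.29 and 8.54, and 30 and 27.9. Psma7 was higher than in WT, at 36.4 and 37.1 and at 37.2 and 41.8, close to its level at 3 d.p.p. The Psma8 differences were -3.16 ± 0.51 and -3.56 ± 0.51 (adjusted p = 4.58e-05 and 1.56e-05, limma), those of Psmf1 -3.15 ± 0.20 and -3.08 ± 0.20, and those of Psma7 1.24 ± 0.21 and 1.34 ± 0.21, and all passed in the same direction after rescaling.

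In Piwil2-/- testes 29 of 47 members fell and 6 rose (64% and 20.2% of all genes), and after rescaling 9 of 45 were lower and 28 higher (39.2% and 46.3%). In Piwil4-/- testes 25 of 47 fell and 6 rose (63.2% and 19.7%), and after rescaling 8 of 46 were lower and 30 higher (39.1% and 45.3%). The count of 31 called in Piwil4-/- testes was 20 without WT replicate 2. Psmd10 rose in both, from 0.941 and 1.19 in WT to 3.87 and 4.13 in Piwil2-/- and 3.49 and 3.22 in Piwil4-/-, and Psmc3 fell in both, from 66.7 and 60.4 to 14 and 12.9 and to 15.5 and 11.1. Sertoli cell genes summed to 689 to 757 and 680 to 1062 in these mutants, and meiotic spermatocyte genes to 15.6 to 19.9 and 14.4 to 42.4, and their part in the differences was not tested.

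The other testis comparisons called no member. In Piwil3-/- adult testes 0 of 44 members passed (4.91% of genes higher and 1.40% lower, 2 members with an unadjusted p under 0.05). Psmf1 was at 142 and 125 and Psma6 at 187 and 150, above the WT libraries without overlap, at adjusted p of 0.0643 and 0.216 (limma). With 2 libraries per group such separation arises often by chance, and its share over all genes was not derived. Without WT replicate 2, the higher WT library for both genes, the differences were 0.93 and 0.82, with 1 WT library left. Round spermatid genes were likewise above WT without overlap in these libraries, at a sum of 1919 to 2217 against 849 to 1680, and their part in these values was not tested. At 3 d.p.p. 0 of 48 members passed in Piwil2-/- testes (0.197% of genes higher, 0.201% lower) and 0 of 48 in Piwil4-/- testes (0.140% and 0.163%), with 1 member at an unadjusted p under 0.05 in each.

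WT oocytes held the most proteasome RNA per spike-in read at the GV stage. The 49 genes summed to 37405 ± 1763 in GV oocytes (SD, n = 3) and made up 1.40 to 1.46% of all summed values. The leading member was Psmc1, an ATPase, at 4076, 4319 and 4063, followed by Psma7 at 2259, 2132 and 2244. By the MII stage 42 of 45 tested members were lower and 0 higher, where 90.9% of all genes were lower and 0.0746% higher, and the share was 0.405 to 0.426%. After rescaling 28 of 43 members were lower and 2 higher (35.9% and 7.50%). The 5 cumulus or granulosa cell genes in the table summed to 83.3 to 167 in GV and 4.61 to 14.5 in MII oocytes, with Fshr and Ptx3 at 0 in both and Has2 at 0 in GV. The 5 macrophage and leukocyte genes summed to 222 to 253 and 5.51 to 13.7, with Ptprc and Adgre1 at 0 in both. The part of such cells in the values was not tested.

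Members did not decline by the same amount at maturation. Psmc1 went to 13.1, 22.8, 6.90 and 32 in MII oocytes, -7.92 ± 0.49 on the log2(value + 1) scale (adjusted p = 6.02e-15, limma), and Psmf1 from 370, 396 and 460 to 5.96, 0.195, 0 and 0.965. The chaperone Psmg3 went from 549, 521 and 435 to at most 0.290. Psma7 went to 433, 418, 573 and 585, and Psmd1, a large subunit of the 19S base, was at 223, 207 and 206 and then 204, 190, 165 and 171, a difference that did not pass. Psma7 fell by 2.15 on the spike-in scale but differed by 0.17 after rescaling, and Psmd1 was higher by 2.08 after rescaling (adjusted p = 0.000553), so the direction for these genes depended on the scale.

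At 11 h several of the most depleted members were higher again. Psmc1 was at 586, 170, 255, 331 and 195, 4.02 ± 0.43 above MII (adjusted p = 1.98e-07, limma), and Psmf1 at 93.9, 3.62, 30.8, 58.2 and 7.73. Of 41 tested members 12 were higher and 3 lower than in MII oocytes (17.4% and 6.61% of all genes), and 11 of 42 were higher and 0 lower after rescaling (10.2% and 1.21%). ATPases led this group, with 4 of 5 higher, Psmc5 among them at 57.1 ± 28.3 (SD, n = 5) against 8.70 ± 5.35 (n = 4). Psmd3 went from 122, 91.4, 88.7 and 124 to 49.8 ± 36.6 and was among the 3 lower. The libraries followed Smart-seq2, a protocol that primes on poly(A) tails, and changes of tail length and of RNA amount cannot be told apart in them.

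Of the WT oocyte and embryo groups, embryos at 34 h had the least RNA, with totals of 27070 to 55248 and a proteasome sum of 469 ± 223 (SD, n = 4). Of 42 members 31 were lower and 3 higher than at 11 h (86.4% and 6.33% of all genes). After rescaling 18 were lower and 12 higher (60.9% and 19.7%). The 3 higher members on the spike-in scale were the ATPases Psmc6 (at most 0.604 at 11 h, then 9.76, 34.6, 63.1 and 28.7) and Psmc4 (0.262 to 11.7, then 8.79, 48.6, 77.2 and 41.8) and the core subunit Psmb1. Among the lower ones, Psme3, the nuclear PA28-gamma activator, went from 277, 277, 199, 168 and 283 to 1.65, 1.19, 2.80 and 2.51, and Psmd9, a 19S assembly chaperone, from 332, 263, 253, 205 and 240 to 4.22, 3.79, 3.24 and 0.495.

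Between 34 and 54 h most members rose on the spike-in scale but not after rescaling. All 7 alpha-ring genes tested, all 7 constitutive beta-ring genes, all 6 ATPases, all 11 non-ATPases and all 6 tested chaperones were higher, and 40 of 44 members in all, where 40.8% of all genes were higher and 4.22% lower. The median member difference was 2.92 against 0.80 over all genes. The filter for this comparison kept genes above 0, so the shares and median over all genes took in low values. After rescaling 20 of 43 were higher and 1 lower (21.7% and 19%). Psma6 went from 0.0118, 0.0201, 1.38 and 2.37 to 111 and 160 (6.30 ± 0.43, adjusted p = 1.48e-12, limma), and Psma4 from 0.0216, 4, 0 and 0.637 to 101 and 115. The proteasome share reached 1.86 to 1.95%, against 0.698 to 1.32% at 34 h. Of 21 other ubiquitin and proteasome pathway genes tested, 18 were higher and 0 lower, and after rescaling 7 of 19 were higher and 0 lower.

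**Figure D4:**
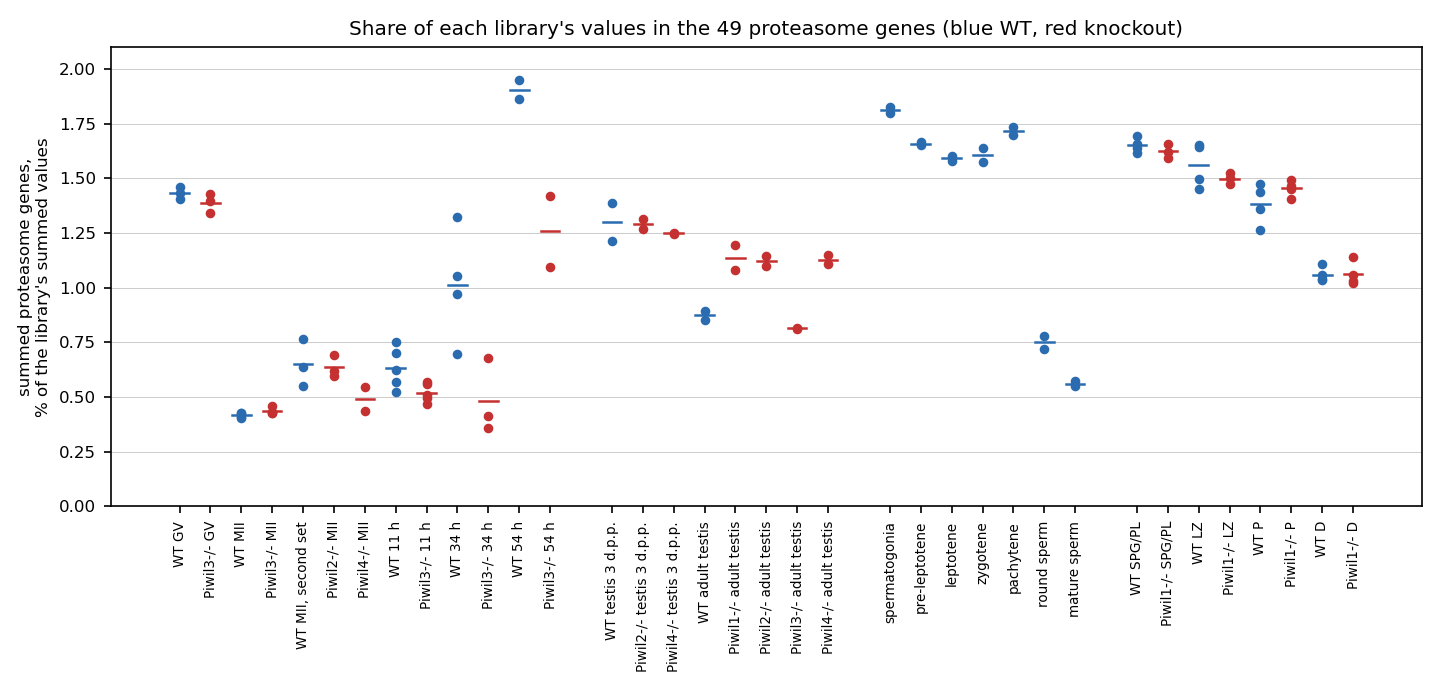
Share of each library's summed values (percent) carried by the 49 genes, with a point for each library, WT in blue and mutants in red. GV oocytes are at 1.40 to 1.46% in WT, MII oocytes at 0.405 to 0.426%, and 54 h embryos at 1.86 to 1.95% in WT and 1.09 to 1.42% in Piwil3-/-.

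Few members passed the test between Piwil3-/- and WT oocytes or 11 h embryos, and for MII oocytes the count depended on the WT set used. In GV oocytes 0 of 45 members passed and 0 had an unadjusted p under 0.05, where 1.17% of all genes were higher and 1.02% lower (0.103% and 0.0515% after rescaling, with 0 members called). In MII oocytes 1 of 38 passed (3.11% higher, 1.95% lower): Psma2, an alpha-ring subunit, at 88.5, 55, 54.1 and 65.4 against 18.7, 25.9, 11.2 and 35.7 in WT, 1.57 ± 0.45 (adjusted p = 0.0357, limma). That call was lost after rescaling (0.465% of genes higher, 0.478% lower) and when any of 6 of the 8 libraries (Piwil3-/- replicates 1, 3 and 5, WT replicates 1, 2 and 4) was left out, with differences of 1.28 to 1.67. With the WT libraries of the second set as controls, 18 members were called in place of 1 and the Psma2 difference was -0.02. At 11 h 0 of 40 passed, though 13 had an unadjusted p under 0.05 (0.857% of genes higher, 0.732% lower), and 0 passed after rescaling (0.0790% and 0.395%). There the count was 8 without the 2 WT libraries titled 8 h and 6 without the first of them alone.

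At 34 h the Piwil3-/- embryos held little of several ATPase RNAs that WT embryos contained. The study reports that embryos from Piwil3-/- mothers lagged in development behind WT. Genotype and developmental stage thus cannot be told apart in the comparisons at 34 and 54 h. Psmc4 was at 0.0266, 0.0280 and 0 against 8.79, 48.6, 77.2 and 41.8 in WT, and Psmc5 at 0.0140, 0.0295 and 0 against 19.4, 17, 60.8 and 36.2. Psmc6 was at 0, 2.81 and 0.0521 against 9.76, 34.6, 63.1 and 28.7. No mutant library overlapped a WT library for any of these genes. The differences were -5.13 ± 0.66, -4.90 ± 0.46 and -4.20 ± 0.47 on the log2(value + 1) scale (adjusted p = 2.30e-07, 5.29e-10 and 1.74e-08, limma, n = 3 against 4). Psmc2 and Psmc3 were lower as well, and the one remaining ATPase, Psmc1, was at 21.2, 12.7 and 5.04 against 7.07, 12.8, 13.7 and 7.81, which did not pass.

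Other parts of the particle were lower too. Psmb1 was at 2.46, 2.74 and 8.86 against 20.3, 72.5, 73.3 and 72.1, and Psmb3 at 0.398, 0 and 0 against 8.13, 21.9, 4.68 and 6.83. Psmd4, the ubiquitin receptor known as Rpn10, was at 2.19, 6.44 and 9.53 against 14.8, 66.9, 90.1 and 72.5, and Psmd11 of the lid at 5.18, 3.51 and 1.26 against 23.3, 29.3, 34.4 and 19.4. These genes did not overlap between genotypes. Of 44 members 22 were lower and 5 higher at 34 h, whereas 21.1% of all genes were lower and 14.8% higher, and the median member difference was -1.35 against -0.02. Genes above 0 rather than above 2 were tested here, so shares and medians over all genes took in genes with low values. After rescaling 23 of 41 were lower and 6 higher (39.7% and 34.2%). In a fit of these 7 libraries alone, 16 members were called.

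The higher members were the chaperone Psmd9, the activator Psme3, the regulator Psmf1, the alpha-ring subunit Psma2 and the non-ATPase subunit Psmd1. Psmd9 was at 45.3, 50.3 and 42.6 in Piwil3-/- embryos against 4.22, 3.79, 3.24 and 0.495 in WT (3.73 ± 0.28, adjusted p = 7.53e-12, limma). Psme3 was at 8.27, 4.87 and 9 against 1.65, 1.19, 2.80 and 2.51 (1.46 ± 0.26, adjusted p = 3.69e-05). Psmf1 was at 6.00, 0.599 and 8.03 against 0.00978, 0, 0 and 0, a call lost without Piwil3-/- replicate 1 or 5 (differences of 1.92 and 1.74). Psma2 and Psmd1 were also higher but overlapped WT, and their calls were lost without Piwil3-/- replicate 1 (1.23 and 0.79), and that of Psmd1 also without WT replicate 1 (0.90). Psmd9 and Psme3 were abundant in WT GV and MII oocytes and had fallen by 34 h in WT embryos.

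In the same libraries 6 oocyte genes summed to 74.4 to 171 in Piwil3-/- and 5.49 to 28.5 in WT, and 4 germ cell genes to 16.7 to 33.4 against 0.0269 to 2.08. Cumulus and granulosa cell genes were at 0 in both. Library totals overlapped (22321 to 35158 against 27070 to 55248), and the part of these differences in the proteasome values was not tested. Of 22 tested pathway genes outside the set 5 were lower and 1 higher, and after rescaling 8 of 18 were lower and 4 higher. The lower ones on the spike-in scale included the ubiquitin precursor gene Rps27a (0.506 against 161 on average). The replicates of this stage were less alike than elsewhere, with correlations of 0.752 to 0.822 across genes within the Piwil3-/- group and 0.813 to 0.895 within WT.

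**Figure D5:**
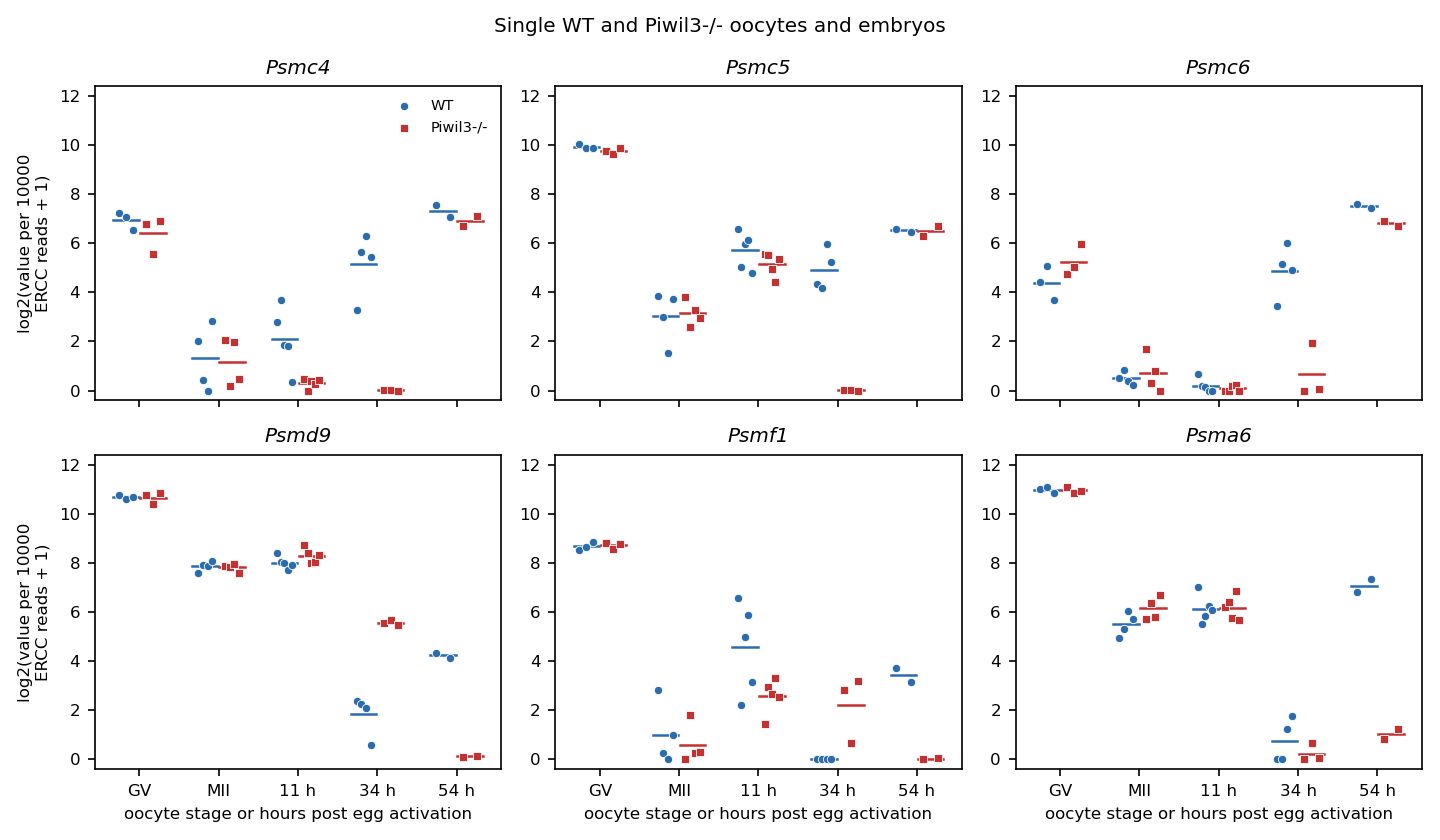
Values per 10000 spike-in reads of 6 genes on a log2(value + 1) scale in WT (blue circles) and Piwil3-/- (red squares) oocytes and embryos, one point per library. Psmc4, Psmc5 and Psmc6 are apart at 34 h and overlap or lie close at 54 h, whereas Psmd9 and Psmf1 are higher in Piwil3-/- at 34 h and lower at 54 h.

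At 54 h the differences of Psmc4, Psmc5 and Psmc6 were no longer called, those of Psmc2 and Psmc3 still were (Psmc3 alone after rescaling), and other subunits stood out. Psmc4 was at 104 and 135 in Piwil3-/- against 187 and 135 in WT, Psmc5 at 77.5 and 102.96 against 95.8 and 87.7, and Psmc6 at 120 and 103.2 against 191 and 169, and none passed. Psma6 was at 0.786 and 1.36 against 111 and 160, -6.03 ± 0.50 on the log2 scale (adjusted p = 1.17e-10, limma, n = 2 per group). Psma4 was at 7.14 and 12.8 against 101 and 115, and Psma2 at 9.38 and 1.10 against 56.9 and 66.4. Psmd9, higher at 34 h, was now lower, at 0.0725 and 0.108 against 19.3 and 16.2 (-4.10 ± 0.36, adjusted p = 4.91e-10). Psme3 was at 2.54 and 3.22 against 13.3 and 26.8, and Psmf1 at 0 and 0.0391 against 12.1 and 7.87, the latter not called without WT replicate 1.

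At this stage 27 of 44 members were lower and 0 higher in Piwil3-/- embryos (22.6% and 4.46% of all genes), with a median difference of -2.1 against -0.46. As at 34 h, the genes tested were those above 0, low values included. By role, 6 of 7 alpha-ring and 6 of 7 constitutive beta-ring genes were lower, 6 of 11 non-ATPases, 4 of 6 chaperones and 2 of 6 ATPases. After rescaling 11 were lower and 0 higher (20.2% and 12.9%). The summed level of the set was 1116 ± 232 in Piwil3-/- and 3394 ± 135 in WT (SD, n = 2), and library totals were 87011 to 90139 against 169390 to 187330. The count was 15 without Piwil3-/- replicate 2, and 0 in a fit of the 4 libraries alone. Of 23 other pathway genes 12 were lower and 0 higher, and after rescaling 6 of 21 were lower and 1 higher.

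The change of the genotype difference between stages was itself tested. From 11 to 34 h it shifted for 15 of 40 members, 11 down and 4 up (12.2% and 9.73% of all genes), and after rescaling 15 of 41 shifted down and 7 up (15.9% and 28.1%). Among them were Psmc5 and Psmd9, with Psmc5 at -4.36 ± 0.59 and Psmd9 at 3.44 ± 0.38 (adjusted p = 9.77e-07 and 2.16e-08, limma). From 34 to 54 h it shifted for 19 of 45, 12 down and 7 up (19.8% and 13.3%), and after rescaling 9 of 44 shifted down and 14 up (22.2% and 35.2%). Here Psmd9 was at -7.83 ± 0.46 and Psmf1 at -5.62 ± 1.21, whereas Psmc4, Psmc5 and Psmc6 were at 4.71 ± 1.09, 4.86 ± 0.75 and 3.52 ± 0.78 (adjusted p from 1.62e-13 to 0.00105). All 7 named values kept their direction and passed after rescaling.

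The second set of MII oocytes gave a call for Piwil4-/- and none for Piwil2-/-. In Piwil2-/- oocytes 0 of 42 members passed (0.193% of genes higher, 0.0340% lower, 4 members with an unadjusted p under 0.05). In Piwil4-/- oocytes 13 of 42 were lower and 3 higher (17.7% and 2.76%), and 15 and 3 after rescaling (19.8% and 3.51%). Psmc1 was at 20.9 and 12 against 596, 433 and 369 in WT (-4.76 ± 0.33, adjusted p = 2.60e-06, limma), and Psme1 at 3.53 and 8.45 against 174, 146 and 138 (-4.55 ± 0.37, adjusted p = 4.56e-06). Psma7 was higher, at 1130 and 914 against 334, 408 and 396.

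The WT MII oocytes of the first set held Psmc1 at 13.1, 22.8, 6.90 and 32 and Psme1 at 17, 11.2, 19.5 and 23.9. The WT sets thus differed from each other in these members by more than the spread within either. With the first WT set as controls, the Piwil4-/- difference of Psmc1 was -0.03 and did not pass, 5 members were called in place of 16, and 22 were called for Piwil2-/- in place of 0. For Psmc1 genotype and set of oocytes cannot be told apart. Psme1 and Psma7 lay outside the libraries of both WT sets in Piwil4-/- oocytes. With the first WT set as controls their differences were -1.48 and 1.03 (adjusted p = 0.0295 and 0.0148, limma). The WT sets did not overlap each other for Psme1 or Psma7, so genotype and set cannot be told apart for these genes either. Psmb8 and Psmb11, the thymus subunit, were listed at 0 in every oocyte and embryo library.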

How the data were processed

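Smart-seq2 mRNA libraries (43 from oocytes and embryos, 16 from testes, 14 of the stage series and 30 of the other sorted cells) were used. The paper's methods state that reads were trimmed, aligned with STAR to the hamster genome BCM_Maur_2.0 with multi-mapped reads kept, and counted with featureCounts. The submitters' processing notes list STAR 2.9, Trim Galore 0.5.0 and featureCounts 1.6.4. The authors deposited oocyte, embryo, testis and sorted-cell values as a ratio to spike-in reads per kilobase, and stage-series values as FPKM. No counts were used here, so depth is unknown. The submitters' labels gave every group, and 2 columns were not used.

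Gene IDs were matched to hamster symbols (36133 of 36133). Differences were tested with limma 3.58.1 in R 4.3.3 on log2(value + 1), with all groups of an experiment in one fit, over genes above 2 in at least 40% of the libraries compared (above 0 where fewer than 5000 genes passed), and Benjamini-Hochberg adjustment over all genes tested. Members were called at an adjusted p under 0.05. Genes above 0 were tested for Piwil3-/- against WT at 34 and 54 h and for WT from 34 to 54 h. The same held for the genotype shift from 34 to 54 h and for both mutants at 3 d.p.p. A fold on this scale understates changes of low values. The fits were tested on simulated data. Of called members, up to 10 in each direction with the largest change were named, or the 3 with the lowest p where none passed, besides Psma7, Psma8, Psmb5 to Psmb11 and Psme1 to Psme4. Psma7 and Psma8 were tested in sorted cells by 10 exact permutation tests, and between sorted WT stages also over the 4 pairs. Marker and pathway lists (29 of 33 pathway genes matched) were described by counts and sums. The values of a gene that the rule names from the pathway list are not reported here. The members and lists were chosen with earlier results of these data known. Plots were made in Python 3.11.15 (matplotlib 3.10.9).

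Same-numbered libraries deviated together at 3 steps between sorted WT cells (4 pairs each, correlations of deviations from 0.16 to 0.34), and the numbers were treated as pairs there. Differently numbered libraries correlated at up to 0.19, 0.28 and 0.27 at these steps. The best match was the own number for 3, 2 and 2 of the 4, so the pairing is not settled. A block for the number gave 21, 41 and 20 members called in place of 22, 41 and 21. Other comparisons share numbers only.

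Alternatives were a pseudocount of 0.1, no filter on low values, equal library totals, a fit of the compared groups alone, a replicate block, the other WT set of MII oocytes, A and B libraries averaged, and each library left out in turn.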

Additional observations from a re-analysis of the deposited data

Results flagged for a closer look

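A single library stood far from the others of its group in 3 of 47 checks, each of 1 measure in 1 group. Chance alone picks out about 1 in 20 checks. Psma8 was at 4.98 in WT MII oocyte replicate 1 and listed at 0 in the other 3. Psmb9 was at 3.41 in WT leptotene/zygotene library 1B, where the next was 0.226. Psma7 was at 2.24 in WT pachytene library 2A, where the next was 0.782.

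The Piwil3-/- minus WT difference changed between embryo stages for 31 named genes and steps (limma, adjusted p under 0.05). From 11 to 34 h it shifted up for Psmf1 (4.2), Psmd9 (3.44), Psme1 (2.74) and Psme3 (0.99) on the log2 scale. It shifted down for Psmc5 (-4.36), Psmb1 (-4.23), Psmd11 (-3.45), Psmc4 (-3.35), Psma7 (-3.17), Psmb3 (-2.96), Psmd4 (-2.82), Psma3 (-2.64), Psmd7 (-2.34) and Psmd8 (-2.17). The shifts of Psme1, Psme3 and Psmd8 no longer passed when 1 of several libraries was left out.

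From 34 to 54 h it shifted down for Psmd9 (-7.83), Psmf1 (-5.62), Psma6 (-5.50), Psma2 (-5.29), Psme3 (-3.83), Psma4 (-3.59), Psmd1 (-3.02), Psmb5 (-2.79), Psma5 (-2.57) and Psmd5 (-2.45). It shifted up for Psmc5 (4.86), Psmc4 (4.71), Psmc6 (3.52), Psmd4 (3.02), Psmb9 (2.91), Psmb1 (2.25) and Psmd11 (2.14).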

How the results depend on the processing

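Of 283 called named differences, 196 kept their direction and call in every alternative run. By setting, the named differences that kept both were 298 of 310 with a pseudocount of 0.1, 294 of 310 with no filter, 280 of 305 with equal library totals, 273 of 310 in fits of the compared groups alone, 260 of 267 with a replicate block, 4 of 16 with the other WT set of MII oocytes (4 changed sign) and 1809 of 1963 with 1 library left out. Counts of members called moved by over 1.5 times in these cases, and the cause was not tested. For Piwil3-/- MII oocytes the count of 1 became 0 with a pseudocount of 0.1, with no filter, with equal totals and with the replicate block, 3 in a fit of the compared groups alone and 18 with the other WT set. For Piwil3-/- embryos, the count of 0 at 11 h became 9 with the replicate block and 8 without the 2 WT libraries titled 8 h. The 27 at 34 h became 16 in the compared-only fit, and the 27 at 54 h became 11 with equal totals and 0 in the compared-only fit. In WT, the 15 from MII to 11 h became 9 with a pseudocount of 0.1, and the 40 from 34 to 54 h became 21 with equal totals. With the other WT set Piwil2-/- MII went from 0 to 22 and Piwil4-/- MII from 16 to 5. With equal totals Piwil1-/- testes went from 6 to 31 and Piwil1-/- diplotene cells from 1 to 3, and the latter to 0 with A and B libraries averaged. In compared-only fits, spermatogonia to pre-leptotene went from 2 to 0 (1 with no filter), pre-leptotene to leptotene from 1 to 0, Piwil1-/- pachytene cells from 0 to 1, and sorted WT pre-leptotene to leptotene/zygotene from 22 to 12.

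Some log2 differences changed sign. With the other WT set Psma2 was at -0.02 in Piwil3-/- and 0.07 in Piwil2-/- MII oocytes, Psme1 at 2.13 in Piwil2-/- and Psmd3 at -0.07 in Piwil4-/-. Without the 2 WT leptotene/zygotene libraries numbered 1, Psmb5 and Psme2 were at 0.09 and 0.06 in Piwil1-/- cells. From WT pachytene to diplotene with equal totals, Psmd4 was at -0.07, Psmb10 at -0.05, Psmc5 at -0.09, Psme3ip1 at -0.08 and Psmb5 at -0.11.

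Leaving out each library in turn gave 0 to 1 called members for Piwil3-/- MII oocytes, 0 to 6 at 11 h, 19 to 27 at 34 h and 15 to 24 at 54 h. WT steps gave 10 to 17 from MII to 11 h. Testes gave 3 to 7 for Piwil1-/-, 0 to 2 for Piwil3-/- and 20 to 27 for Piwil4-/-. The stage series gave 0 to 2 from spermatogonia to pre-leptotene, 0 to 2 to leptotene and 6 to 11 to zygotene. Sorted Piwil1-/- cells gave 0 to 12 in leptotene/zygotene and 0 to 1 in pachytene. No sign changed. Where 1 library was left in a group, it was assumed to vary like the other groups. No paired analysis was possible for Piwil3-/- GV oocytes, 54 h embryos and Piwil4-/- MII oocytes because these groups share fewer than 2 replicate numbers. The block changed no other count by over 1.5 times. The number of libraries limits the precision, as read depth is unknown.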
